A study of Mus musculus with 30 samples.

Results

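The Period genes Per1, Per2 and Per3 were measured in the hypothalamus of mice that carried a human repeat allele in Per3 itself, and of their wild-type (WT) controls. All array features named for these genes were taken, which gave 4 probes for 3 genes out of 41174 probes in all: 1 probe for Per1, 2 for Per2 and 1 for Per3. All 4 were well above background on each of the 30 arrays.

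The period proteins are the negative arm of the circadian clock. CLOCK and BMAL1 bind E-boxes and switch on the Per and Cry genes, and the PER and CRY proteins then gather in the nucleus and repress their own transcription. Per1 and Per2 also answer to light, neuronal activity and glucocorticoids through CREB and the glucocorticoid receptor, and they are strongly rhythmic in the suprachiasmatic nucleus, the clock within the hypothalamus. Per3 is rhythmic as well, but mice keep time without it, and in humans it carries a coding repeat of variable number.

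The repeat is found in primates and WT mice carry none. In the knock-in mice, 1 exon of mouse Per3 had been exchanged for its human counterpart, which brought in either 5 repeats (Per3 5/5, labelled Boxhill) or 4 repeats (Per3 4/4, labelled Coach), in homozygous form. The alleles were made in C57BL/6-derived Bruce4 embryonic stem cells and kept on a C57BL/6 background, with ubiquitous Cre recombinase used to bring the human exon into the transcript and then bred out. The WT mice carried the mouse exon, were likewise without Cre and came from the same founders, and a recombination site that stays in the knock-in allele goes with the human exon. All mice were male and all, WT included, had lived under alternating 3.5 h of light and 3.5 h of darkness until cycle 17, when the brains were taken in the light. Each mouse gave 1 single-colour (Cy3) Agilent array of RNA from a hypothalamic tissue block. The first run held 7 Per3 5/5 and 7 WT arrays and the second 8 Per3 4/4 and 8 WT arrays, so each knock-in was compared only with the WT arrays of its own run, and levels were not set across runs.

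Where each probe lies decides what it can report. On the mm9 build, the Per1 probe lies at chr11:68922878-68922937 on the plus strand, the 3′ Per2 probe at chr1:93313046-93313105 and the upstream Per2 probe at chr1:93336538-93336597, both on the minus strand, and the Per3 probe at chr4:150379256-150379315 on the minus strand. They start at bases 4078, 5290, 1001 and 4401 of their transcripts. The upstream Per2 probe reads through in 1 frame without a stop and is shown whole, and the first 30 of 60 bases are shown for the other probes, which sit far down their transcripts.
Per1: gcttacagcagtctaatgagaggcttcctt
Per2, 3′ probe: acctttcacagtgatcaggtagtagccatg
Per2, upstream probe: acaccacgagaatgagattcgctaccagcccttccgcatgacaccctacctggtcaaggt
Per3: ggctctttccttaagatctgtcagctagcc
The position of the Per3 probe relative to the exchanged exon was not worked out, so its signal is a transcript level and is no check of genotype.

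Some arrays stood apart before any comparison was made. The 75th percentile of intensity ran from 752 to 1546 on the Per3 5/5 arrays, from 907 to 1091 on the WT arrays of the first run, from 347 to 1370 on the Per3 4/4 arrays and from 490 to 1260 on the WT arrays of the second. The dimmest of all were Per3 4/4 array 5 (347, with 58.6% of spots well above background) and WT array 15 (490, with 60.9%). WT array 10 went against its tissue label: the summed level of hypothalamic neuron markers was 31.3 there against at least 160 on the other WT arrays of that run, while the striatal markers summed to 15.9 against at most 4.33. On WT array 14 the pituitary markers, led by growth hormone (Gh), summed to 980 against at most 20.7 on the other WT arrays. Of the 13 measured hypothalamic neuron markers, 12 were well above background on every array of the first run and 11 on every array of the second, WT array 10 included. In such tissue, fewer cells of a type and less RNA per cell cannot be told apart.

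Neither knock-in had a Period transcript that passed the test. Levels are given as log2 intensity minus the array's own 75th percentile of log2 intensity, so that 0 is the brightness of that percentile. After adjustment over all 29947 probes tested, 0 of the 4 Period probes were called in Per3 5/5 mice, where 0% of all probes were called, and 0 of 4 in Per3 4/4 mice, where 0.0134% were. In this fit the largest shift was that of the 3′ Per2 probe in Per3 5/5 mice, and it did not survive the adjustment. With slide as a random or a fixed block, the Per3 shift in those mice was larger (−0.260 and −0.295, against −0.236 and −0.210).

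For Per1, levels in Per3 5/5 mice ran from 0.01 through a median of 0.16 to 0.55. The WT mice of that run ran from 0.23 through 0.36 to 0.52. Of the 7 Per3 5/5 arrays, 4 lay below every WT array and 1 above, so the groups overlapped. The difference was −0.15 ± 0.18 on the log2 scale (SE, n = 7 against 7; 95% interval −0.52 to 0.23; limma adjusted p = 0.949). Within the 4 slides it was −0.24, −0.13, −0.04 and −0.21. With only the arrays of that run fitted, the SE was 0.0916 and the interval −0.34 to 0.05.

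In the second run Per1 varied more from mouse to mouse. Per3 4/4 mice ran from 0.08 through 0.91 to 1.51 and WT mice from 0.52 through 0.96 to 1.93, and only 1 Per3 4/4 array lay outside the WT range, below it. That array and the highest WT array were the same dimmest pair named above. The difference was −0.13 ± 0.17 (n = 8 against 8; 95% interval −0.48 to 0.21; limma adjusted p = 1.00). Without those 2 arrays it turned to 0.11 (limma p = 0.390), and with either of them left out alone it was −0.01. Within the 4 slides of that run the sign was mixed, at 0.19, −0.07, −0.26 and −0.40.

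Per2 is the member whose loss shortens and then abolishes behavioural rhythms in mice. Its 3′ probe had the lowest SD within groups of the Period probes, pooled over both runs (0.204). In the first run alone its SDs were 0.16 in Per3 5/5 and 0.28 in WT mice. There Per1 had 0.20 and 0.11, and the upstream Per2 probe 0.16 and 0.17. At the 3′ probe Per3 5/5 mice ran from −2.30 through −2.10 to −1.81 and WT mice from −2.07 through −2.03 to −1.32. Of the 7 Per3 5/5 arrays, 5 lay below every WT array. The difference was −0.26 ± 0.12 (95% interval −0.49 to −0.02), a fold of 0.837, with a limma p of 0.0351 that became 0.796 on adjustment and an exact two-sided permutation p of 0.0455 over 3432 regroupings. An unadjusted p under 0.05 was thus found for 1 of the 4 Period probes and for 6.17% of all probes in Per3 5/5 mice, and for 0 of 4 and 1.73% in Per3 4/4 mice.

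Within the 4 slides of the first run the 3′ Per2 difference was −0.43, −0.28, −0.20 and −0.02. The unadjusted p under 0.05 was lost under 4 of 14 alternatives that kept all arrays of the run: slide as a fixed block (−0.21, limma p = 0.0586), only the arrays of the run fitted (limma p = 0.0501), normexp background correction (−0.20, limma p = 0.0595) and the test named in the methods (p = 0.0561, no limma moderation). It leaned on WT array 6, whose level of −1.32 was the highest of its group. Without that array it was −0.17 (limma p = 0.130), and with each of the 14 arrays of the run left out in turn it ran from −0.31 to −0.17, with a limma p under 0.05 in 8 of the 14 fits. In Per3 4/4 mice the same probe ran from −1.41 through −1.28 to −1.12, inside the WT range of −1.48 through −1.30 to −0.73. Its difference there was −0.04 ± 0.11 (95% interval −0.26 to 0.19; limma adjusted p = 1.00), and 0.04 without WT array 10, the array whose markers went against its label.

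The upstream Per2 probe gave other values. Its levels ran from −3.39 through −3.16 to −3.03 in Per3 5/5 mice and from −3.52 through −3.13 to −2.98 in their WT controls. In the second run they ran from −4.94 through −3.96 to −3.03 in Per3 4/4 mice and from −5.15 through −3.92 to −3.52 in WT mice. Neither pair of groups separated, with differences of −0.04 ± 0.23 (95% interval −0.52 to 0.43; limma adjusted p = 1.00) and 0.02 ± 0.22 (95% interval −0.42 to 0.47; limma adjusted p = 1.00). Across the 30 mice with group means removed, the 2 Per2 probes had an r of −0.24 with each other, −0.63 in the first run and −0.19 in the second, which is given as a description of probes on the same arrays. The interval of the upstream probe in Per3 5/5 mice holds the 3′ value of −0.26, but it takes its width from both runs, whose SDs for this probe were 0.16 and 0.17 in the first and 0.64 and 0.54 in the second. With only the arrays of the first run fitted it was −0.24 to 0.16, which leaves that value out. Whether the differences at the 2 probes differ was not tested.

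Per3, the gene that carries the human exon, had opposite signs in the knock-in lines. In the first run it ran from −3.41 through −2.62 to −2.56 in Per3 5/5 mice and from −3.41 through −2.51 to −2.28 in WT mice. In the second run it ran from −3.88 through −3.44 to −3.02 in Per3 4/4 mice and from −4.55 through −3.77 to −3.09 in WT mice. The groups overlapped in both runs. In the first, 5 of 7 WT arrays lay above every Per3 5/5 array and 1 Per3 5/5 array lay below every WT array, and in the second 1 Per3 4/4 array lay above every WT array and 2 of 8 WT arrays lay outside the Per3 4/4 range.

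The Per3 5/5 difference was −0.23 ± 0.20 (95% interval −0.64 to 0.18; limma adjusted p = 0.891) and the Per3 4/4 difference was 0.23 ± 0.19 (95% interval −0.15 to 0.61; limma adjusted p = 1.00). The Per3 5/5 arrays fell into a set of 4 between −2.62 and −2.56 and a set of 3 between −3.41 and −3.19. The lower set (arrays 3, 5 and 6) held the brightest Per3 5/5 arrays, with 75th percentiles from 988 to 1546 against 752 to 941. Before that percentile was subtracted the sets overlapped, with Per3 intensities from 109 to 145 against 123 to 160. Both differences moved with single arrays. The first became −0.36 without WT array 1 and −0.14 without Per3 5/5 array 3. The second became 0.11 without WT array 13, 0.19 without WT array 10 and 0.32 without WT array 15. Within slides each had a mixed sign, at −0.32, −0.88, −0.23 and 0.04 in the first run and at 0.14, 0.30, 0.71 and −0.23 in the second. With normexp background correction the differences were −0.16 and 0.09. Whether 5 and 4 repeats differ was asked by subtracting one effect from the other, and for Per3 this gave −0.46 ± 0.27 (95% interval −1.02 to 0.10; limma p = 0.101, adjusted p = 1.00), or −0.26 with normexp. As a ratio of the Per3 5/5 fold to the Per3 4/4 fold, that interval runs from 0.491 to 1.07. For the 3′ Per2 probe it gave −0.22 ± 0.16 (limma p = 0.174), for the upstream one −0.06 ± 0.32 and for Per1 −0.01 ± 0.25. No probe at all was called between the effects (0%), against 2.98% with an unadjusted p under 0.05.

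**Figure D1:**
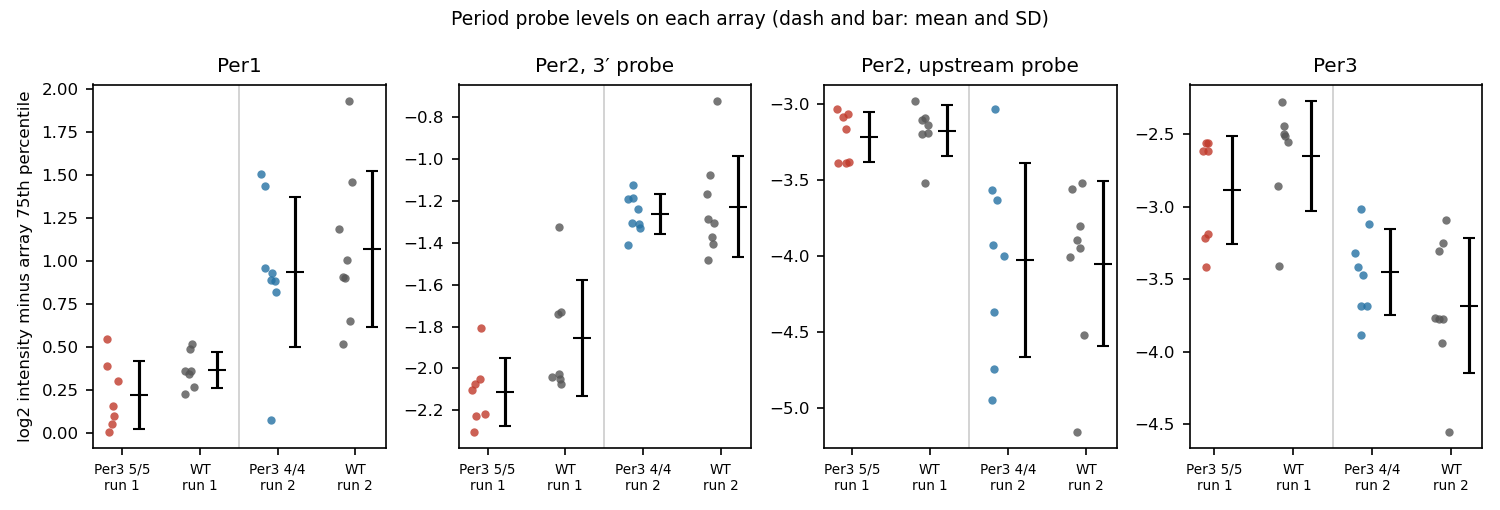
Level of each Period probe on every array (log2 intensity minus the array's 75th percentile), by genotype and run; each point is 1 mouse and bars give the mean and SD. The knock-in and WT points overlap in every panel, and most of the Per3 5/5 points of the 3′ Per2 probe (5 of 7) lie below all WT points of their run.

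Array brightness moved most with Per3. Across the 30 mice with group means removed, the log2 75th percentile of intensity had an r of −0.57 with the Per3 level (−0.58 in the first run and −0.60 in the second), against 0.02 for Per1, 0.09 for the 3′ Per2 probe and 0.25 for the upstream Per2 probe. That percentile is subtracted in every level, so the same term enters both sides of these r values. Its part in the Per3 differences was not tested.

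How small a change could have been seen follows from the spread. The SD within groups was 0.344 for Per1, 0.204 for the 3′ Per2 probe, 0.449 for the upstream Per2 probe and 0.383 for Per3, with a median of 0.336 over all probes tested. These SDs pool both runs, whose spread could differ. For Per1 the SDs were 0.20 and 0.11 in the groups of the first run and 0.44 and 0.45 in those of the second. The pooled SD of Per1 thus lies above the former and below the latter. Only 13.6% of probes had a smaller SD than the 3′ Per2 probe. The median half-width of the 95% interval was 0.36 for Per3 5/5 and 0.34 for Per3 4/4 over all probes. Each Period probe has its own interval, given beside its difference.

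**Figure D2:**
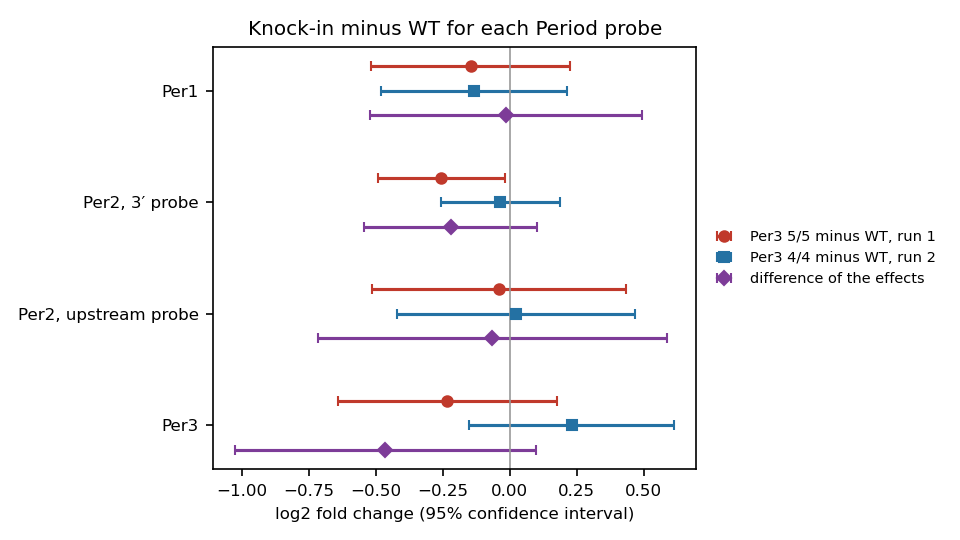
Log2 difference of each Period probe between knock-in and WT mice of the same run (circles Per3 5/5, squares Per3 4/4) and the difference between these effects (diamonds), with 95% intervals from limma. Only the interval of the 3′ Per2 probe in Per3 5/5 mice (−0.49 to −0.02) leaves out 0, and the Per3 estimates of the 2 lines (−0.23 and 0.23) lie on either side of it.

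The partners, targets and inputs of the Period genes were then read in the same way. Of 54 listed genes, 53 had a probe, and 89 of their 90 probes were tested. None was called in either comparison, 6 of the 89 had an unadjusted p under 0.05 in Per3 5/5 mice (1 higher and 5 lower) and 5 of 89 in Per3 4/4 mice (2 higher and 3 lower), against 6.17% and 1.73% of all probes. Without WT array 10, 0 of 89 did so in Per3 4/4 mice. The median difference of the listed probes was −0.06 in Per3 5/5 and −0.04 in Per3 4/4 mice, and that of all probes −0.02 and 0.01. List medians for Per3 4/4 mice moved with WT array 10, and each is also given without it.

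The activators of Per transcription had small differences. The positive arm had a median of −0.01 in Per3 5/5 mice, with Arntl (BMAL1) at 0.19 ± 0.17 and Clock at 0.03 ± 0.15 the highest, and Npas2, a CLOCK paralogue, at −0.24 ± 0.15 and Rorb, a nuclear receptor of the suprachiasmatic nucleus, at −0.24 ± 0.22 the lowest. In Per3 4/4 mice its median was 0.15 and, without WT array 10, 0.07. There Rorb was at up to 0.27 ± 0.20, its relative Rora at 0.27 ± 0.33 and Npas2 at −0.21 ± 0.14. No probe of this arm had an unadjusted p under 0.05 in either line.

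Among the repressors and modifiers that act with PER proteins, the medians were 0.07 and −0.03 (−0.05 without WT array 10). The highest value in each line belonged to Fbxl21, a ubiquitin ligase subunit that acts on cryptochromes, at 0.33 ± 0.20 in Per3 5/5 mice and at 0.44 ± 0.19 and 0.41 ± 0.20 for its probes in Per3 4/4 mice (limma unadjusted p = 0.0254 and 0.0487, adjusted p = 1.00). The lowest in Per3 5/5 mice was Bhlhe41 (DEC2), a repressor at E-boxes, at −0.25 ± 0.23, followed by the kinase gene Csnk1e at −0.10 ± 0.13, and the second highest was 1 probe of Csnk1d, of the same kinase family, at 0.19 ± 0.22. In Per3 4/4 mice Cry1 was at 0.21 ± 0.34, and the lowest were Nr1d1 at −0.17 ± 0.20 and Btrc at −0.15 ± 0.23. Without WT array 10 no probe of this list, Fbxl21 included, had an unadjusted p under 0.05 in those mice.

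The clock outputs had medians of −0.01 and −0.09 (−0.08 without WT array 10). Hlf and Tef encode D-box activators, and Hlf was at 0.12 ± 0.18 in Per3 5/5 and 0.17 ± 0.17 in Per3 4/4 mice. In Per3 5/5 mice Tef was at −0.24 ± 0.19 at 1 probe and at −0.05, −0.01 and 0.003 at its others. Wee1, a clock-controlled kinase gene, was at 0.07 ± 0.14 in Per3 4/4 mice. Usp2, a rhythmic deubiquitinase, was at −0.36 ± 0.17 in Per3 5/5 and −0.27 ± 0.16 in Per3 4/4 mice at one probe, and at −0.11 ± 0.27 and −0.29 ± 0.26 at the other. Nfil3, the D-box repressor, was at 0.21 ± 0.13 and −0.14 ± 0.12 at one probe, and at 0.09 ± 0.15 and −0.28 ± 0.14 at the other.

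The CREB and activity targets, which answer to the input that also drives Per1, lay mostly below WT. All 16 tested probes were negative in Per3 5/5 mice (median −0.16) and 14 of 16 in Per3 4/4 mice (median −0.46), although none passed the test. The lean was not particular to this list. In Per3 5/5 mice all astrocyte (7), striatal (4), endothelial (4) and cortex and hippocampus (5) marker probes were negative too. Positive there were 9 of 12 hypothalamic neuron, 9 of 13 suprachiasmatic, 6 of 10 thalamus and 15 of 23 repressor and modifier probes. Npas4 was at −0.95 ± 0.56 and Arc at −0.85 ± 0.40 in Per3 5/5 mice, and Egr1 was at −0.65 ± 0.37 and Fosb at −0.63 ± 0.27 in Per3 4/4 mice. The highest in Per3 5/5 mice were Dusp1, a MAP kinase phosphatase gene, at −0.08 ± 0.19 and the immediate early gene Ier2 at −0.09 ± 0.21. In Per3 4/4 mice they were another probe of Ier2 at 0.17 ± 0.48 and Sik1 at 0.09 ± 0.22. The Ier2 probe first named was at −0.48 ± 0.20 in Per3 4/4 mice (limma unadjusted p = 0.0228), so the Ier2 probes disagreed there. Without WT array 10, 15636 of all 29947 probes tested were negative in Per3 4/4 mice. The median of this list was then −0.25, with 12 of 16 negative and no unadjusted p under 0.05. These genes move together in tissue, so the 16 probes do not count as separate observations. Cortex and hippocampus markers summed to between 0.388 and 1.24 on the Per3 5/5 arrays and between 0.588 and 2.02 on the WT arrays of that run. In Per3 4/4 mice without WT array 10, the median difference of their probes was 0.17, with 1 of 5 negative. The part of these markers in the differences was not tested.

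Of the other inputs, glucocorticoid targets had medians of −0.18 and 0.12 (0.05 without WT array 10). In Per3 5/5 mice the lowest were Fkbp5, a co-chaperone of the glucocorticoid receptor, at −0.44 ± 0.19 for 1 of its 3 probes and the kinase gene Sgk1 at −0.39 ± 0.35. The highest were another probe of Fkbp5 at 0.13 ± 0.26 and 1 probe of Tsc22d3 (GILZ) at 0.05 ± 0.18. The other Tsc22d3 probes were at −0.08 and −0.06 there. In Per3 4/4 mice Cdkn1a was at −0.51 ± 0.26 and Ddit4 at −0.15 ± 0.17, against Plin4, a lipid droplet protein gene, at 0.24 ± 0.29 and Tsc22d3 at 0.23 ± 0.15.

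Heat shock and temperature genes had medians of −0.10 and −0.01 (−0.04 without WT array 10). The cold-inducible Rbm3 gave −0.75 ± 0.39 at one probe and 0.39 ± 0.17 at another in Per3 5/5 mice, so its probes disagreed. After it came the chaperone genes Hspa8 at 0.33 ± 0.20 and Hspa1a at −0.47 ± 0.23. In Per3 4/4 mice Rbm3 was at 0.33 ± 0.36 and Hsp90aa1 at 0.23 ± 0.14, against Hspb1 at −0.24 ± 0.20 and Hspa1b, a near copy of Hspa1a, at −0.19 ± 0.25. No glucocorticoid or heat shock probe passed the test.

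Markers of neighbouring tissue differed between groups without passing the test. All 8 tested choroid plexus probes were higher in Per3 4/4 mice (median 0.84, and 0.64 without WT array 10) and 7 of 8 were lower in Per3 5/5 mice (median −0.53), with transthyretin (Ttr) at 2.06 ± 1.32 and −2.01 ± 1.41. Across mice, the mean log2 level of these markers had an r of −0.10 with Per1, −0.24 with Per2 and −0.03 with Per3, and of −0.02, −0.08 and −0.08 without WT array 10. Their part in the Period differences was not tested.

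Mice also differed within groups, which allowed a second question, whether mice with more of one Period transcript also had more of another. They did not detectably do so. With group means removed, Per1 and Per2 (3′ probe) had r = 0.21 and rho = 0.17 over 30 mice (permutation p = 0.258 and 0.350, adjusted over 3 pairs 0.667 and 0.845). Per1 and Per3 had r = 0.16 and rho = 0.09 (permutation p = 0.444 and 0.645, adjusted 0.667 and 0.845), and Per2 and Per3 had r = −0.09 and rho = −0.04 (permutation p = 0.695 and 0.845, both also after adjustment). Within the runs the values were 0.19 and 0.26, 0.05 and 0.21, and 0.06 and −0.23. Without the 2 mice farthest from the median of the first gene they were 0.23, 0.19 and −0.07.

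Each Period gene was then set against the listed genes. Of the 159 pairs of a Period gene with a listed gene, 16 passed an adjusted permutation p of 0.05: 11 for Per1 (4 positive and 7 negative), 1 for Per2 and 4 for Per3 (3 positive and 1 negative). The largest unadjusted permutation p among them was 0.00502, and by the same test 14.9% of all 19842 genes with a tested probe reached that p with Per1, 1.66% with Per2 and 6.37% with Per3, against 20.8%, 1.89% and 7.55% of the 53 listed genes, so the listed shares were not far from the background and the counts are no result about the lists. Adjusted over all these genes, 14 of the 16 pairs passed, without Sik1 and Wee1 for Per3. Which Period gene a listed gene went with was not itself tested. Over all genes, the 5th and 95th percentiles of r were −0.67 and 0.60 for Per1, −0.42 and 0.39 for Per2 and −0.50 and 0.45 for Per3. Each test drew 100000 permutations within groups, whose smallest possible p is 1e-05, and used 1 probe per gene, the brightest.

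Per1 correlated positively with Cry2, Nr1d1, Dbp and Ciart. With Cry2, which encodes the cryptochrome partner of PER proteins, r was 0.877 and rho 0.81 (permutation p = 2e-05 and 1e-05, both 0.00159 adjusted). The value was 0.578 in the first run and 0.931 in the second, and 0.749 without the 2 mice farthest from the Per1 median (adjusted permutation p = 0.00477). Those 2 mice are those of the dimmest arrays. The second Cry2 probe gave 0.558.

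Nr1d1, the gene of the nuclear receptor REV-ERBα that represses Arntl, had r = 0.837 and rho = 0.692 with Per1 (adjusted permutation p = 0.00159 and 0.00874). It was 0.497 in the first run, 0.871 in the second and 0.620 without the 2 dimmest arrays (adjusted permutation p = 0.0295), and its other probes gave 0.646 and 0.300. Dbp, the D-box activator, had r = 0.603 and rho = 0.555 (adjusted 0.00159 and 0.0435 by permutation), with 0.568 and 0.804 in the runs and 0.544 without the dimmest pair. Ciart, a repressor of CLOCK and BMAL1, had r = 0.574 and rho = 0.549 (adjusted 0.00636 and 0.0435 by permutation), with 0.345 and 0.788 in the runs and 0.548 without that pair. The r of Dbp and Ciart lay near the upper bound of that range for Per1 (0.60). The sign was positive in both runs for all 4 genes, although no pair of Per1 passed the adjustment in the first run alone (14 mice), while 11 did in the second (16 mice).

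Past the threshold on the negative side were 4 heat shock genes and 3 others. Hsph1, of the Hsp110 family, had r = −0.696 and rho = −0.627 with Per1 (adjusted permutation p = 0.00159 and 0.00901), −0.454 and −0.784 in the runs and −0.605 without the 2 dimmest arrays (adjusted permutation p = 0.00859). It was the single negative partner that kept its call without them. The other negative partners were Csnk1d (r = −0.750), a kinase of PER proteins, Pdk4 (−0.741), Hsp90aa1 (−0.710), Ddit4 (−0.707), Dnajb1 (−0.659) and Hspa1a (−0.546), of which the last pair lay inside the range between the 5th and 95th percentiles over all genes. In the first run alone these 6 were between −0.302 and 0.351, with Csnk1d (0.00625), Dnajb1 (0.197) and Pdk4 (0.351) above 0, and in the second between −0.866 and −0.757. By rho none of the 6 passed (adjusted permutation p from 0.0531 to 0.176). Without the dimmest pair their values fell in size to between −0.356 and −0.484, with adjusted permutation p from 0.130 to 0.281. Their calls thus depended on those 2 mice, which lie farthest from the Per1 median. The other 3 probes of Csnk1d had positive values with Per1, of 0.585, 0.524 and 0.581, and the other probe of Dnajb1 had 0.367, so the sign of both genes depends on the probe. Btrc, a ubiquitin ligase subunit for PER proteins, had a high r of 0.639 that did not pass (adjusted permutation p = 0.0542). It passed without WT array 10 (0.772, adjusted permutation p = 0.0123) and with quantile normalisation (0.659, adjusted 0.0406), and was −0.103 in the first run alone and 0.214 without the dimmest pair.

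For Per2, the sole partner past the threshold was Cdkn1a, the gene of the cell cycle inhibitor p21, with r = 0.622 (adjusted permutation p = 0.0123) and rho = 0.459 (adjusted permutation p = 0.101). It was 0.535 and 0.791 in the runs, and passed in neither run alone. The value was 0.412 without the 2 mice farthest from the Per2 median (WT arrays 6 and 10). Without WT array 10 alone it was 0.405 (adjusted permutation p = 0.177). The call thus depended on that array, which is not among those of the first run. The next values were those of the immediate early genes Egr2 (0.486), Egr1 (0.476) and Fosb (0.445), with adjusted permutation p of 0.151, 0.159 and 0.162. With normexp, Egr2 (0.561) and Fosb (0.561) passed (adjusted permutation p = 0.0403 and 0.0194). Rorb (−0.419), Fbxl21 (−0.395) and Rora (−0.267) had negative values, none of which passed. Without WT array 10 these values were smaller in size, at 0.158 for Egr2, 0.161 for Egr1 and 0.109 for Fosb. Rorb was then at −0.193, Fbxl21 at −0.0670 and Rora at −0.0408. Under the other alternatives, the first run alone among them, Egr1 stayed at or above 0.413 and Egr2 at or above 0.419. Rorb stayed at or below −0.361 there. Apart from the first run alone, those alternatives all kept WT array 10. Fosb went down to 0.118, and in the first run alone Fbxl21 was at 0.0935 and Rora at 0.0640. With all arrays, 11 of 12 activity and CREB targets had a positive r with Per2 (median 0.37), and without WT array 10 it was 5 of 12 (median −0.01).

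For Per3, 4 pairs passed, 8 did in the first run alone and 0 in the second alone. With Bhlhe41 Per3 had r = 0.685 and rho = 0.657 (adjusted permutation p = 0.00583 and 0.0134), 0.926 in the first run and 0.558 in the second, and 0.609 without the 2 mice farthest from the Per3 median. The other Bhlhe41 probe gave 0.474. With Arntl it had r = −0.619 and rho = −0.641 (adjusted permutation p = 0.00636 and 0.0131), −0.829 and −0.379 in the runs and −0.666 without the farthest mice. Sik1, a CREB target that restrains CREB signalling, and Wee1 stood close to the threshold with r = 0.556 and 0.540 (adjusted permutation p = 0.0499 and 0.0467). Without the farthest mice these were 0.250 and 0.568, so the value for Sik1 depended on those mice. Wee1 did not pass without WT array 10 (0.531, adjusted permutation p = 0.0607), and neither passed without the 2 dimmest arrays. The next highest was Btrc (0.492), which passed without those arrays (0.634, adjusted permutation p = 0.00859) and with normexp (0.555, adjusted 0.0374), and the lowest after Arntl were Rbm3 (−0.422), Cry1 (−0.420) and Fos (−0.374), none past the threshold.

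Brightness ran with several of these genes. Its r was 0.44 with Arntl, −0.34 with Bhlhe41, −0.38 with Wee1 and −0.36 with Sik1. With brightness removed as well, Bhlhe41 kept r = 0.637 (adjusted permutation p = 0.00223) while Arntl was at −0.497 (0.0888), Sik1 at 0.460 (0.171) and Wee1 at 0.424 (0.137). Brightness had an r of 0.18 with Cry2, −0.11 with Nr1d1, −0.01 with Dbp and −0.14 with Ciart. The mean log2 levels of other marker lists moved with single Period genes as well. Per2 had r = 0.48 with the striatal list (0.14 without WT array 10, but 0.55 in the first run, which does not hold it). With the cortex and hippocampus list Per2 had 0.40 (0.22 without that array). Per3 had −0.39 with the suprachiasmatic list (−0.54 without that array) and 0.37 with the endothelial list. The latter was 0.73 in the first run, 0.05 in the second and 0.56 without the 2 dimmest arrays. Per1 had −0.37 with the oligodendrocyte list (−0.31 without WT array 10 and −0.22 without the 2 dimmest arrays). With the striatal list Per1 had 0.37 (0.31 and 0.43 in these fits). The part of these markers in the correlations was not tested.

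**Figure D3:**
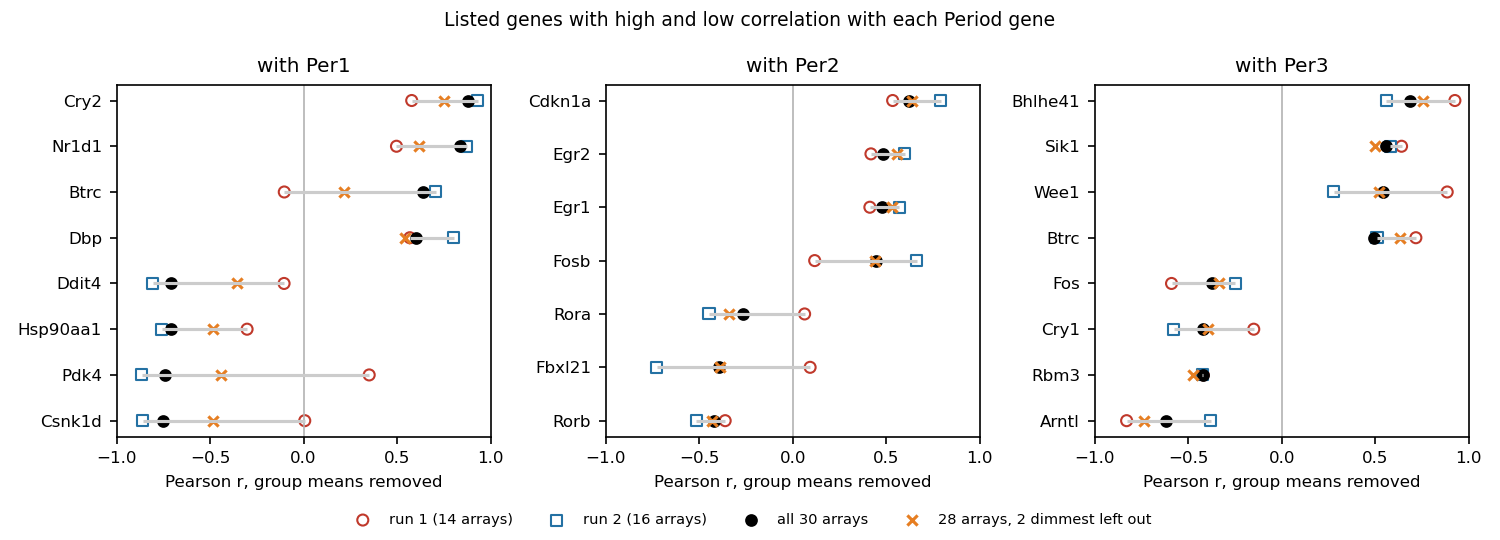
Pearson r of Per1, Per2 (3′ probe) and Per3 with listed genes across 30 mice, group means removed; filled circles give all 30 arrays, open circles the first run, squares the second run and crosses 28 arrays without the 2 dimmest. Cry2 and Nr1d1 lie farthest to the right for Per1 (0.877 and 0.837), and Bhlhe41 and Arntl lie at opposite ends for Per3 (0.685 and −0.619).

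**Figure D4:**
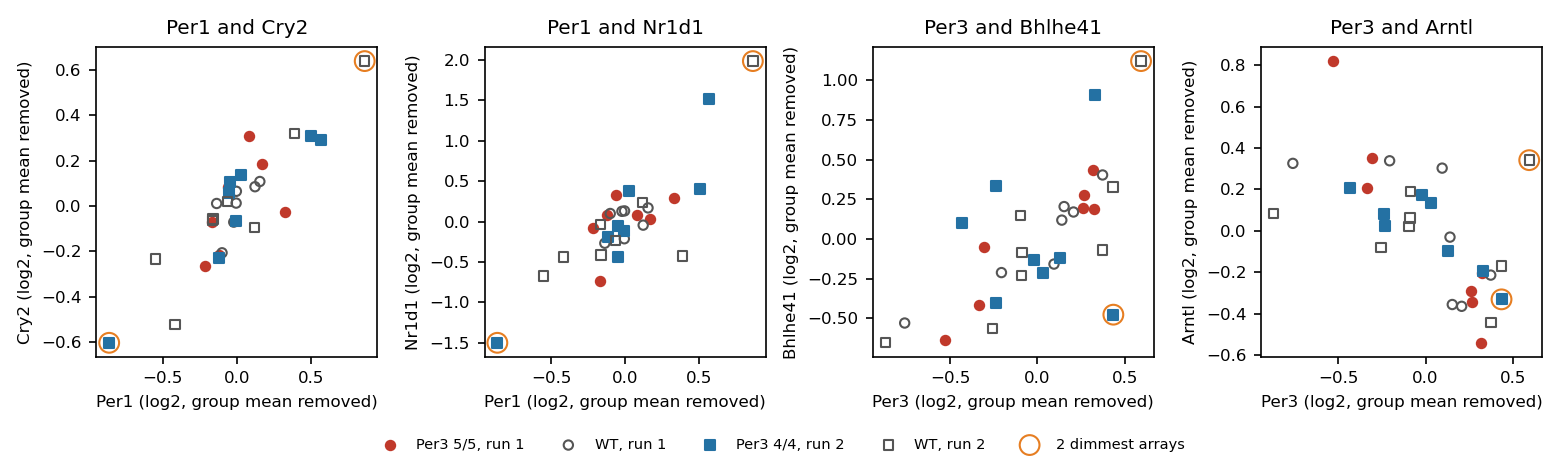
Level of each Period gene against that of a partner on each array, both as log2 deviation from the mean of the group; each point is 1 mouse, marked by genotype and run, and rings mark the 2 dimmest arrays. For Per1 with Cry2 and Nr1d1 the ringed arrays lie at the ends of the cloud, and for Per3 with Bhlhe41 and Arntl 1 of them lies away from the other points.

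Set against all 19842 genes with a tested probe, the same pairs had these places, given as a description. Cry2 was the 5th highest gene for Per1, both with all mice and without the 2 dimmest arrays, where r was 0.749. Nr1d1 was 21st and then 55th, Dbp 956th and then 212th, and Ciart 1177th and then 195th. Counted from the bottom for Per1, Csnk1d was 337th, Pdk4 389th, Hsp90aa1 621st, Ddit4 641st, Hsph1 744th (211th without the dimmest arrays), Dnajb1 1138th and Hspa1a 2653rd. Cdkn1a was 33rd from the top for Per2. For Per3, Bhlhe41 was 56th, Sik1 374th and Wee1 448th from the top and Arntl 303rd from the bottom. Per2 was 4766th and Per3 5428th on the list of Per1, which is another form of the weak relation among the Period genes. The share of genes with an r beyond 0.7 in size with Per1 was 5.27% with all mice and 0.207% without the dimmest pair. Those 2 mice also lie farthest from the Per1 median, so leaving them out narrows the range of Per1. Why the share fell was not tested. For Per2 the share was 0.0302% and then 0.0756%, and for Per3 0.670% and then 2.63%.

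The genes most like Per1 over 30 mice were Scmh1 (0.91), a Polycomb group gene, Acap3 (0.89), Akap1 (0.89), an anchor of protein kinase A, Ogfr (0.88) and Cry2 (0.88), and the least like it were Siae (−0.90), Prim2 (−0.89), a DNA primase subunit, and Ctsb (−0.89), cathepsin B. For Per2 the highest were Hirip3 (0.78), Mapk14 (0.74), the kinase p38α, Mrps2 (0.73), a transcript without a gene symbol (0.71) and Enox1 (0.69), and the lowest Olfr1341 (−0.73), Gm11961 (−0.73) and Megf11 (−0.70). For Per3 they were a transcript without a symbol (0.85), Gpr89 (0.81), Nat10 (0.80), Nol10 (0.79) and Insig1 (0.78), against Gzf1 (−0.85), Ccdc132 (−0.81) and Bhlhb9 (−0.81). No gene stood on more than 1 of these short lists.

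The promoter windows show which clock elements lie just upstream of Per1, Per3 and some of the genes that moved with a Period gene. The 250 bases before each annotated start were taken from RefSeq on the GRCm38.p6 build and searched on both strands for the E-box CACGTG, the D-box TTATGNAA and the CRE half-site TGACG, which do not overlap one another in these windows. They are found in 6.02%, 3.07% and 17.8% of 32851 such windows. In the sequences that follow, capitals mark the matches.
Per1, upstream start, chr11:69098699-69098948, plus strand: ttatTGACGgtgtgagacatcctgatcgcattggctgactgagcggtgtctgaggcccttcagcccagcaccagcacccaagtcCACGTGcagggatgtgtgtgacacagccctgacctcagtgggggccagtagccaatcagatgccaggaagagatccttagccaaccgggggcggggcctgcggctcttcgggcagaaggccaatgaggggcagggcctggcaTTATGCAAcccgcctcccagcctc
Per1, downstream start, chr11:69099902-69100151, plus strand: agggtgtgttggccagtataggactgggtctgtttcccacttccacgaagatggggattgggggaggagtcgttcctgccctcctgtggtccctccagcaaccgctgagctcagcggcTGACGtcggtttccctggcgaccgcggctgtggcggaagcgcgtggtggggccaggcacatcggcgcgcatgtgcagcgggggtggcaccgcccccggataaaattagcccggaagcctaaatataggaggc
Per3, chr4:151044666-151044915, minus strand: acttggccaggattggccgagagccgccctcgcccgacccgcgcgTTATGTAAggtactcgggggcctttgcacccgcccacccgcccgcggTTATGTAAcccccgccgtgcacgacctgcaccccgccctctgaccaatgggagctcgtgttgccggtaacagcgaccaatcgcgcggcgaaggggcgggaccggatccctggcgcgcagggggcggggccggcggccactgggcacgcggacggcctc
The first Per1 window holds 1 match to each element, the second holds 1 TGACG, and the Per3 window holds 2 D-boxes and no CACGTG. Of the partners, the Ciart window holds 3 CACGTG, that of Bhlhe41 1 and that of Cry2 1 TGACG, while those of Nr1d1, Dbp, Arntl and Cdkn1a hold none of these letters. Per2 has no window in the table, and no window is given here for the other partners past the threshold. A match is a run of letters and was not tested as a binding site.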

How the data were processed

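RNA from hypothalamic blocks was labelled with Cy3, hybridised to 1-colour Agilent whole mouse genome arrays and read with Agilent Feature Extraction. The deposited scanner files hold the intensity of each spot, which the authors' software had background-subtracted and detrended within the array. The deposited table of all samples holds log2 values that the authors had shifted to the 75th percentile, and it proved to be centred per probe within each run. In the first run, 13 of its 14 columns matched the scanner file of another array number of the same genotype (r of at least 0.9998 for the best match), and in the second all 16 matched their own number. Genotype comparisons are not touched by this, and array numbers here follow the scanner files.

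Here log2 intensity minus each array's 75th percentile was used, with 43379 spots averaged to 41174 probes after control and outlier spots (36 to 117 per array) were dropped; no spot was saturated. The 29947 probes tested were those well above background on all arrays of at least 1 group, and 22383 were so on all arrays. limma 3.58.1 in R 4.3.3 (lmFit, eBayes, Benjamini-Hochberg over all tested probes, threshold 0.05) was fitted to the 30 arrays together, with terms for run and genotype and 95% intervals. Correlations used numpy 2.4.6 in Python 3.11.15 with the mean of each genotype and run removed. Scripts were tested on simulated data first. The number of arrays limits the precision.

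Genes named are the Period probes, the 2 highest and 2 lowest differences of a list, the 4 highest and 4 lowest listed correlations of a Period gene and its 5 nearest and 3 farthest genes; other listed genes are named because they passed the threshold or were examples, chosen after their values were seen. The rule was applied to each comparison of the clock and input lists and not to the marker lists, and 1 listed gene that it would name is not reported here by name. The members, lists and tests were chosen with earlier results of these data known. Alternatives covered background correction, normalisation, filters, slides, replicate blocks, the authors' table, the methods' t-test and each array left out. Those without the 2 dimmest arrays, without WT array 10 in the correlations, with brightness removed, with the table's numbers as a block, with the table in the correlations and with correlation p adjusted over all genes were chosen after seeing the data.

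Each array was 1 mouse. Each run had 4 slides, all holding both genotypes.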

Additional observations from a re-analysis of the deposited data

Results flagged for a closer look

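Of the 16 sets of values tested for a sample far from the others (4 probes in 4 groups), 1 held such a sample. For the upstream Per2 probe, WT array 6 of the first run had a log2 level of −3.52, below the other 6 WT arrays, which lay between −3.20 and −2.98. The same array had the highest level of its group at the 3′ Per2 probe. Chance alone marks about 1 such set in 20.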

How the results depend on the processing

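No Period probe was called in any comparison under any alternative that adjusts p over all probes, and none of the listed probes was called under quantile normalisation, without a filter or with any array left out. Signs were less stable than calls. The upstream Per2 difference in Per3 5/5 mice turned to 0.0235 under quantile normalisation, and the Per1 difference in Per3 4/4 mice to 0.11 without the 2 dimmest arrays. With each array left out in turn, the 3′ Per2 difference in Per3 4/4 mice ran from −0.0716 to 0.0368 (above 0 only without WT array 10) and the upstream one from −0.13 to 0.16. The difference between the knock-in effects then ran from −0.196 to 0.0936 for the upstream Per2 probe and from −0.137 to 0.0676 for Per1, and for Per3 from −0.59 to −0.34. Under normexp the Per3 difference was 0.0928 in Per3 4/4 mice and the difference between the effects −0.255. For the 3′ Per2 probe in Per3 5/5 mice, 8 of the 14 fits without an array of that run and 10 of 14 other alternatives gave an unadjusted p under 0.05, with adjusted p from 0.394 to 1.00 over all alternatives.

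Among the Period genes, r of Per2 with Per3 was 0.173 with the mean of the Per2 probes, 0.204 with normexp background correction and 0.0551 in the first run alone, and r of Per1 with Per3 was −0.0591 with slide means removed. With arrays left out in turn these ran from −0.193 to 0.00739 and from −0.0126 to 0.344, and that of Per1 with Per2 from 0.104 to 0.260. The number of listed pairs past the threshold was 8 in the first run alone and 9 without the 2 dimmest arrays, against 16, and 12 to 23 under the other alternatives. In the first run alone Per1 had an r of 0.00625 with Csnk1d, 0.351 with Pdk4 and −0.103 with Btrc, and Per2 had 0.0640 with Rora and 0.0935 with Fbxl21. Per3 had 0.232 with Cry1 under normexp. The cause of these changes was not tested.

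With the replicate number as a block, the 3′ Per2 difference in Per3 5/5 mice was −0.26 (limma p = 0.0360, adjusted p = 0.771), and by the numbers of the authors' table the adjusted p was 0.804. Deviations of same-numbered Per3 5/5 and WT arrays correlated from −0.285 to 0.399 over 7 pairs, with 2 above 0.1, and by the table's numbers from −0.129 to 0.399, with 3 above 0.1 and 6 pairs on a shared slide, so the numbers were not taken to pair mice. The block changed no call of a Period probe. It gave 2 calls over all probes in Per3 5/5 mice, against 0. Per3 4/4 and its WT mice share only 1 replicate number, so they allowed no such fit. Over all probes, Per3 4/4 mice had 4 calls, against 9 with slide as a random block, 7 with normexp, with the stricter filter or with outlier spots kept, and 0 within the run, without the 2 dimmest arrays or by the methods' t-test. That t-test gave 0 calls in Per3 5/5 mice too, with 3120 unadjusted p under 0.05 there and 295 in Per3 4/4 mice. Signal at the Period probes was well above background on all arrays, with the lowest intensities at 13 for the upstream Per2 probe and 36.9 for Per3.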
